A study of Mus musculus with 9 samples.

Results

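Regulatory T cells (Tregs) of the draining lymph nodes were compared between mice with collagen-induced arthritis and untreated control mice. The comparison used 6 of the 9 RNA sequencing libraries of the study, 3 from arthritic and 3 from control mice, chosen by the tissue and treatment that the sample labels give. All 6 came from mice of wild-type genotype that carried a Foxp3 reporter. After digestion of the nodes, cells were sorted on the reporter's fluorescent protein (YFP), and their Trizol RNA went into strand-specific libraries. The other 3 libraries were of Tregs from the inflamed synovium of arthritic mice. They helped to estimate the spread and served as levels set beside the node values. They also counted in the mean level that a gene needed to be tested. The sample titles number separate mice, so a replicate here is a mouse. The sources used here do not give the strain, the age, the day after immunisation or the sites of the nodes. The controls received no treatment, so that immunisation and joint disease cannot be told apart.

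Tregs are CD4 T cells that depend on the transcription factor Foxp3 and restrain other immune cells, among other ways through the IL-2 receptor and the inhibitory receptor CTLA-4. In lymph nodes most of them circulate and resemble resting T cells, and a fraction is activated, with more of the receptors, cytokines and transcription factors of effector and tissue Tregs. Collagen-induced arthritis is an autoimmune joint disease that follows immunisation with type II collagen, and the nodes that drain the paws are where T cells meet antigen from the joint. The question was which genes differ in Tregs of that node when the joint is inflamed.

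Between 11300406 and 12855435 reads per node library fell in genes, and 11770 to 12818 genes were detected. Values are normalized read counts and are listed by mouse, 1 to 3. Differences are arthritic minus control on the log2(value + 1) scale, with the standard error (SE) and a Benjamini-Hochberg adjusted p from limma over 11357 genes. A gene was called when its adjusted p was under 0.05. Replicates correlated across genes at r = 0.931 to 0.946 among arthritic and 0.910 to 0.933 among control libraries, and pairs across the groups at 0.897 to 0.940. Control library 1 stood apart: on the first principal component of the 6 node libraries, which held 32.4% of the variance, it lay at 87.7 and the others at -42.4 to 12.7. Results that rest on it are therefore given with and without it. Bulk RNA cannot tell a larger share of cells that express a gene from more RNA in each cell.

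The sorted cells carried the genes that define Tregs in all 6 libraries. Foxp3 itself stood at 222, 294 and 291 in arthritic and 224, 169.7 and 404 in control mice, a difference of 0.10 ± 0.30 (adjusted p = 0.964) with overlapping groups. Exons of Flicr overlap it on the same strand, so its reads are uncertain. Ctla4 was at 7396, 6435 and 8910.2 against 7780.4, 7553 and 8360.2, and Ikzf2, which encodes the Treg transcription factor Helios, at 8975, 6735 and 8693 against 7348, 6839 and 9153. The T cell receptor component Cd3e was at 10730.3, 10640.2 and 11734 against 11352, 10303 and 10965. These 4 genes overlapped between the groups and did not pass the test. Cd4 was at 5987, 7065 and 6285 against 5236, 4758 and 4988, somewhat above the controls in each arthritic mouse, and did not pass either (adjusted p = 0.449). Il2ra, the alpha chain of the high-affinity IL-2 receptor, read 11977, 8708 and 10164 in arthritic and 13089.9, 14415 and 14954 in control mice. All 3 arthritic libraries lay below the controls, but the difference of -0.47 (SE 0.12) did not pass (adjusted p = 0.191). In all, limma called 0 of the 20 Treg core genes, with a median difference of -0.06, and DESeq2 called 3, with Il2ra and Socs2 lower and Itgae higher.

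Among the genes higher in arthritic node Tregs were granzyme B, the chemokine receptor gene Ccr2, the signalling inhibitor gene Socs3, the growth factor gene Csf1 and the transcriptional regulator gene Id2. Of 11357 genes tested, 39 were called, or 0.343%. They comprised 38 higher (0.335%) and 1 lower (0.00881%) in arthritic mice, and the lower gene was the survival gene Bcl2. Among the 39, 31 differed at least 2-fold, all of them higher. The median difference of all genes tested was 0.01, and 52.0% of genes had a positive difference, a balance that the size factors set. Without regard to p, 819 genes were at least 2-fold higher and 373 at least 2-fold lower. In each of the 39 the libraries of the 2 groups did not overlap. Over all genes tested, 896 (7.89%) had every arthritic library above every control library and 798 (7.03%) had every one below. Counts of called or non-overlapping list members given below are to be read beside these shares of all genes. At an unadjusted p under 0.05 there were 672 higher and 359 lower genes. The genes named below were taken by size of difference, from up to 15 in each direction, or as members of gene lists. The called genes outside both, 18 of the 39, are named as well where reported, because they complete the called set; they were chosen after their values were seen.

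**Figure D1:**
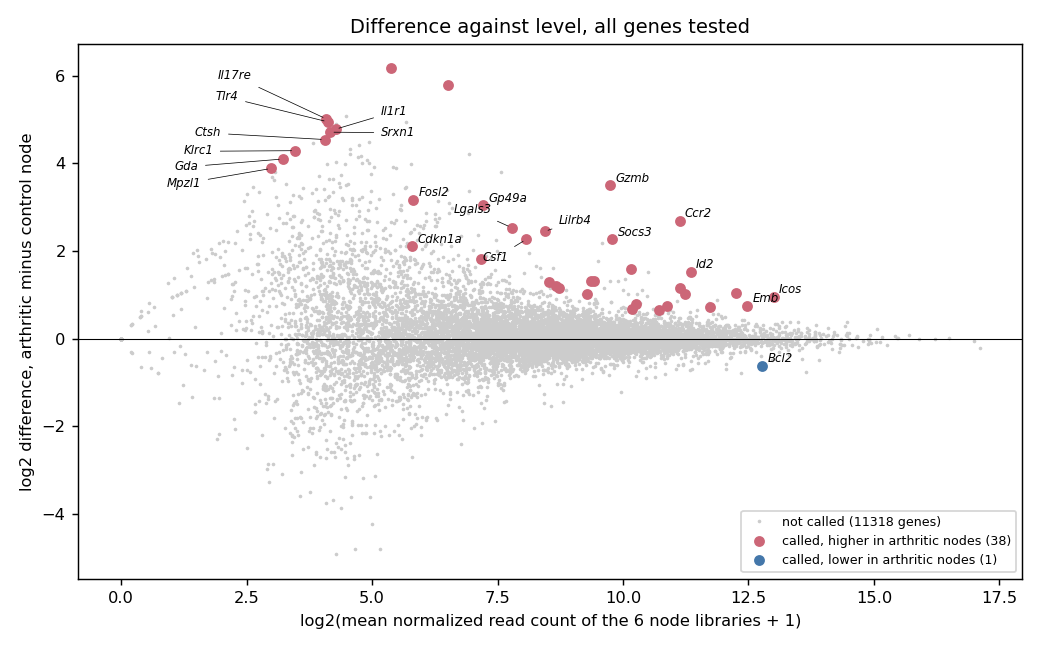
Log2 difference between arthritic and control node Tregs (vertical axis) against the log2 mean level of the 6 node libraries (horizontal axis) for the 11357 genes tested, 1 point a gene. The 38 genes called higher and the 1 called lower are coloured, and most other genes lie close to 0 except at low levels, where differences spread widely.

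These calls depend on how the spread was estimated and on single mice. In a limma fit of the 6 node libraries alone no gene was called, with 1101 genes at an unadjusted p under 0.05 and a smallest adjusted p of 0.101. The differences of the 39 are the same in that fit by construction, so their direction could not change. Their unadjusted p there was at most 0.00629, in genes picked from these same libraries. Without arthritic library 2 limma called 0 genes (700 at an unadjusted p under 0.05), and without arthritic library 3 it called 1, which was not among the 39. Of the 38 higher genes, arthritic mouse 2 was the highest in 23 and arthritic mouse 1 the lowest in 26. Without control library 1, which stood apart, 29 genes were called, and 21 of the 39 were among them. Without control library 2 there were 23 (18 of the 39) and without control library 3 there were 66 (33 of the 39). Both count models made calls as well. With edgeR 37 genes were called, 36 of them among the 39, and with DESeq2 173 (136 higher and 37 lower), 38 of them among the 39.

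**Figure D2:**
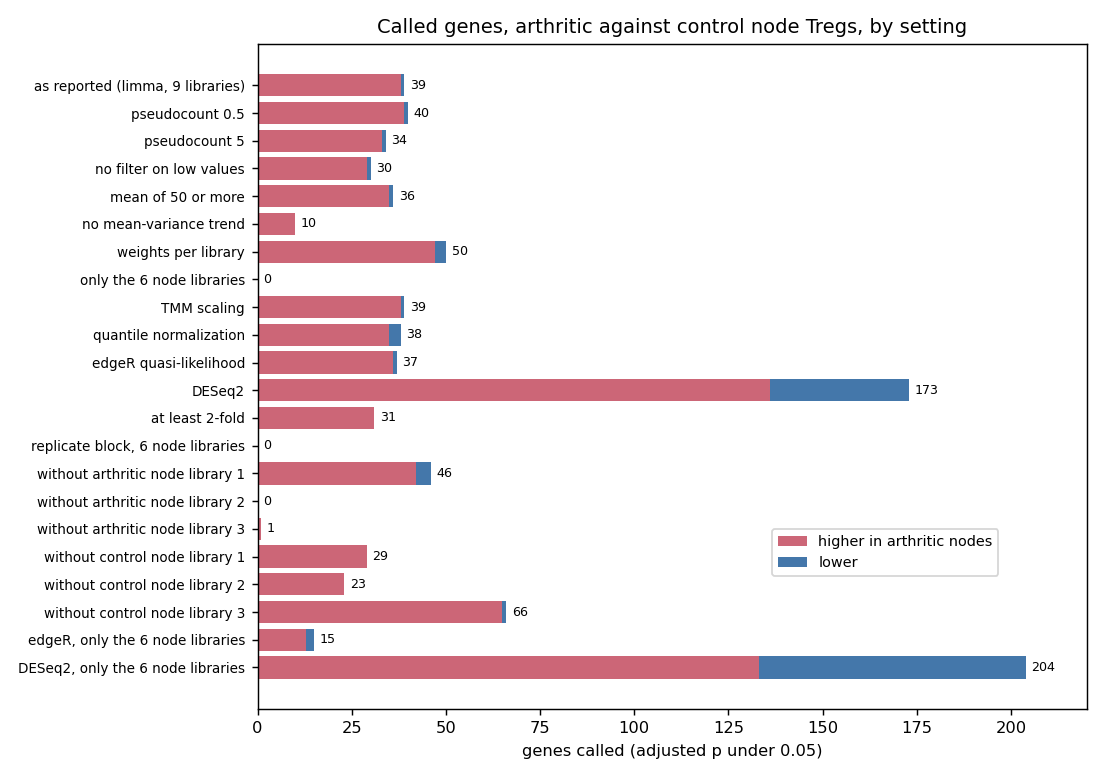
Number of genes called between arthritic and control node Tregs (horizontal axis, adjusted p under 0.05) under each setting (vertical axis), split into higher and lower in arthritic nodes. The bar as reported stands at 39, while the limma fit of the 6 node libraries alone, the fit with a replicate block and the fit without arthritic library 2 stand at 0, and DESeq2 stands at 173.

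Granzyme B led the genes of cytotoxic granules. Gzmb (GRCm38 chromosome 14, 56258838 to 56262260) encodes a protease that kills target cells and that activated Tregs can use against other lymphocytes. It stood at 757, 2493 and 1454 in arthritic and 145, 55.1 and 231 in control mice. The lowest arthritic mouse was above the highest control mouse, and arthritic mouse 2 was far above the other two. Its difference was 3.50 ± 0.46 (adjusted p = 0.0121; 0.0224 without control library 1), and the ratio of the group means was 10.9. Lamp2, a membrane protein of lysosomes, rose from 981, 768 and 929 to 1489, 1719 and 1432 (0.80 ± 0.13, adjusted p = 0.0215). Of 15 cytotoxic granule genes tested, 2 were called, both higher, with a median of 0.60. Perforin, Prf1, which opens the target membrane for granzymes, was at 402, 495 and 406 against 235, 218 and 174 without overlap and did not pass (adjusted p = 0.334). Ctsw, a cathepsin of cytotoxic cells, read 1504, 1089 and 1430.0 against 1907, 2779 and 2319, lower in each arthritic mouse, with an adjusted p of 0.116.

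The receptor genes Lilrb4, Gp49a and Klrc1 were higher. Lilrb4 (chromosome 10, 51490956 to 51496611), an inhibitory receptor with tyrosine-based motifs in its tail, stood at 305, 699 and 745 in arthritic and 175, 83.1 and 65.7 in control mice. Its neighbour Gp49a (chromosome 10, 51480632 to 51486703) stood at 128, 311 and 347 against 63.2, 22.6 and 15.5. Both were lowest in mouse 1 among arthritic mice, and both were highest in library 1 among controls. Their differences were 2.45 ± 0.37 and 3.04 ± 0.47, with adjusted p-values of 0.0147 and 0.0162, and 0.00964 and 0.00667 without control library 1. The genes are near-identical copies beside each other and share exons with the annotated gene Gm49339, so the split of reads between them is uncertain. Klrc1, which encodes the inhibitory receptor NKG2A, had no control read and stood at 10.4, 28.9 and 21.0 in arthritic mice, at least 7.12-fold higher against a floor of 3 reads per library (adjusted p = 0.0219). Its partner Klrd1, which encodes CD94, also had no control read and stood at 10.4, 68.3 and 32.3, but did not pass (adjusted p = 0.191), although DESeq2 called it. Havcr2, which encodes the checkpoint receptor TIM-3, was at 73.0, 317 and 265 against 4.01, 1.81 and 69.4 and did not pass (adjusted p = 0.12). Of 14 genes tested from the checkpoint receptor list, 2 were called, and the list median was 0.26. The 2 were Lilrb4 and Gp49a, the pair with an uncertain split of reads, so they may not be separate signals. Myeloid cells also express LILR genes. Of 7 tested macrophage and monocyte markers 0 were called and 5 had a positive difference. Their median difference was 0.98, or 0.81 with the 1 gene absent from a group at its bound. The list summed to 11727, 9240.3 and 11260.0 in arthritic and 11159, 11601 and 11259.9 in control mice, mostly Ctss. The sums overlapped, and the part of such cells in the LILR values was not tested.

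A receptor for inflammatory chemokines was higher. Ccr2 (chromosome 9, 124101950 to 124113557) binds CCL2 and related chemokines that draw leukocytes from blood into inflamed tissue. Its values were 1733, 4916 and 5007 in arthritic and 527, 342 and 886 in control mice. Arthritic mice 2 and 3 were alike and mouse 1 lay between them and the controls. The difference was 2.68 ± 0.38 (adjusted p = 0.0132; 0.0423 without control library 1).

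A receptor that guides cells within lymphoid tissue was also called. Gpr183, which encodes the oxysterol receptor EBI2 that positions lymphocytes within the node, rose from 1869, 1439.9 and 1504 to 3103, 3118 and 3433 (1.01 ± 0.13, adjusted p = 0.0121; 0.00992 without control library 1). Its 3 arthritic libraries lay close together.

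Of 30 chemokine receptor and adhesion genes, 2 were called, Ccr2 among them, both higher, and 23 had a positive difference, with a median of 0.22. The receptors Ccr1 and Ccr3 stood at 43.5, 116 and 103 against 0, 19.0 and 19.2 and at 27.8, 205 and 227 against 0, 19.0 and 57.5, low in most controls, with adjusted p-values of 0.204 and 0.405. Cxcr6, a receptor of tissue-homing T cells, read 989, 2708 and 2699 against 521, 466 and 1252, where arthritic mouse 1 overlapped the controls (adjusted p = 0.191). Cxcr3, the receptor for interferon-induced chemokines, was at 1458, 2452 and 1824 against 1161, 954 and 1422 (adjusted p = 0.298). Itgae, which encodes the integrin CD103, was at 2083, 3183 and 3056 against 1269, 1329 and 1985, above the controls in every arthritic mouse, but did not pass (adjusted p = 0.12). The node-homing receptor Ccr7 was at 9042, 9017 and 8324 against 11575, 11085 and 11578, below the controls in every arthritic mouse (adjusted p = 0.3).

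The strongest call in cytokine signalling was Socs3 (chromosome 11, 117966079 to 117970047), the feedback inhibitor that STAT3-activating cytokines such as IL-6 induce. It stood at 1091, 1590.4 and 1699.9 in arthritic and 219.8, 412 and 292 in control mice. The groups were far apart, with no control above 412 and no arthritic mouse below 1091. The difference was 2.26 ± 0.27 (adjusted p = 0.0118; 0.0198 without control library 1). No other of the 25 genes of the SOCS and JAK-STAT list was called by limma, while DESeq2 also called Socs2 lower and Pim2 higher, and the list median was 0.18. Socs2, an inhibitor linked to STAT5, was at 973, 702 and 939.9 against 1345, 1328 and 1316, below the controls in every arthritic mouse (adjusted p = 0.132). Stat3 was at 5893, 6771 and 6131 against 4596, 4554 and 4823 (adjusted p = 0.424), the kinase gene Jak3 at 489.6, 694 and 652 against 248, 273 and 446 (adjusted p = 0.446) and Pim2, a kinase induced by STAT5, at 774, 896 and 925 against 528, 431 and 538 (adjusted p = 0.0996). Socs1 and Cish overlapped between the groups.

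Sequence just upstream of 31 of the 38 higher genes was available from RefSeq (GRCm38.p6), as was that of 9163 of the 11357 genes tested. The 250 bases before the most upstream RefSeq start were searched on both strands for the letters of 4 motifs. A STAT site (TTCNNNGAA) was found in 3 of the 31 (9.68%), against 6.01% of all 9163, and an interferon response element (GAAANNGAA) in 3 (9.68%) against 6.22%. An NF-kB site (GGANTTTCC) was found in 1 (3.23%) against 1.09%, and an E box (CANNTG) in 21 (67.7%) against 56.7%. A match is a description of the letters, not a bound site. The 30 bases around the STAT matches of Gp49a and Ctla2a and around the NF-kB match of Csf1 are shown because these are called genes whose window holds a motif of cytokine or inflammatory signalling. The window of Socs3, the other STAT match, is not shown because its RefSeq start lies inside the span that GENCODE gives the gene. The RefSeq starts of Ccr2 and Fosl2, which hold an interferon response element match, lie inside their GENCODE spans as well. All 3 windows are counted in the shares above. Each stretch is written 5′ to 3′ on the gene's strand with the match in capitals.
Gp49a (chr10:51480498-51480527, plus strand, match starting 104 bases before the start): gatgtggcttTTCTCTGAAggaacttgaga
Ctla2a (chr13:60936763-60936792, minus strand, match starting 157 bases before the start): agtcttggcaTTCTCAGAAaagtcgcatcc
Csf1 (chr3:107760604-107760633, minus strand, match starting 154 bases before the start): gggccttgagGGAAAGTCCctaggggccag

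The receptor genes Il1r1, Il17re and Tlr4 were higher, with at most 1 read over the 3 controls. Il1r1, the signalling receptor for IL-1, had 1 control read in all and stood at 49.6, 17.3 and 41.9 in arthritic mice, a ratio of 118 (95% counting interval 20.8 to 4699) with an adjusted p of 0.0132 (0.0224 without control library 1). Il17re, a receptor chain for IL-17C, had no control read and stood at 34.8, 37.5 and 23.6, at least 11.3-fold higher (adjusted p = 0.0144; 0.0224 without control library 1). Tlr4, the receptor for bacterial lipopolysaccharide, also had no control read and stood at 16.5, 47.1 and 34.1, at least 11.6-fold higher (adjusted p = 0.0385). The Tlr4 call was lost without control library 1 (adjusted p = 0.0637) and by edgeR (adjusted p = 0.0833). These 3 genes stayed under 50 in every node library, so that their ratios are imprecise.

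Il18r1, a receptor chain for IL-18, was abundant in both groups and rose from 985, 766 and 925 to 1360.1, 1519 and 1383 (0.68 ± 0.12, adjusted p = 0.0412; 0.0546 without control library 1). Its partner Il18rap was at 147, 235 and 314 against 105, 40.6 and 131 (adjusted p = 0.239). Among 23 cytokine genes tested 1 was called. That gene, Csf1 (chromosome 3, 107741048 to 107760469), encodes the growth factor of macrophages and osteoclast precursors and stood at 339, 456 and 526 in arthritic and 56.2, 93.0 and 136 in control mice. The groups did not overlap, and the difference was 2.27 ± 0.31 (adjusted p = 0.0121; 0.0203 without control library 1). The suppressive cytokine Il10 read 80.0, 394 and 306 against 98.4, 67.7 and 112, with arthritic mouse 1 inside the control range (adjusted p = 0.468). Lta, which encodes lymphotoxin alpha, was at 1391, 884 and 1083 against 1623, 2058 and 2468, lower in each arthritic mouse (adjusted p = 0.298). No read of Il17a was found in the 6 node libraries. Of the 8 genes of the common gamma chain receptors limma called 0. Il21r, the IL-21 receptor, was at 3009, 3206 and 3188 against 1843, 1942 and 2394 (adjusted p with limma = 0.0996), and it was called higher by DESeq2 (adjusted p = 0.00345) and with weights per library. DESeq2 also called Il2ra lower (adjusted p = 0.0294).

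Id2, Rora and Fosl2, which encode regulators of transcription, were higher. Id2 (chromosome 12, 25093799 to 25097140), an inhibitor of E proteins that accompanies effector differentiation, stood at 2772, 4202 and 4699.7 in arthritic and 1378, 1282 and 1296 in control mice. The 3 controls lay close together, and every arthritic mouse was well above them. The difference was 1.53 ± 0.18 (adjusted p = 0.0118; 0.0203 without control library 1). Rora, a nuclear receptor of tissue Tregs and Th17 cells, rose from 334, 269 and 555 to 843, 1096 and 832 (1.31 ± 0.24, adjusted p = 0.0382). Its call was lost without control library 1 (adjusted p = 0.114) and by edgeR (adjusted p = 0.0693), and its exons overlap Gm15511 on the other strand. Fosl2 (chromosome 5, 32135801 to 32157842), a subunit of AP-1, rose from 5.02, 8.12 and 20.1 to 63.5, 152 and 83.9 (3.17 ± 0.47, adjusted p = 0.0144; 0.0346 without control library 1).

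Genes of activated and tissue Tregs were the list with the most calls. This list, like the others, was chosen with earlier results of these data known. Of 30 effector and tissue Treg genes, 5 were called (Gzmb, Icos, Lgals3, Rora and S100a6), all higher, 25 had a positive difference, and the median was 0.92 against 0.01 over all genes. The arthritic libraries lay above the controls without overlap in 17 of the 30 and below them in 1. That gene, the chemokine receptor gene Ccr8, was at 1217, 1255 and 1074 against 1426, 1286 and 1717 (adjusted p = 0.788). Over all genes tested, 7.89% lay above without overlap, 7.03% lay below and 0.335% were called higher. Per library, the median of the list's genes, each centred on its mean over the 6 node libraries, was 0.14, 0.49 and 0.52 in arthritic and -0.46, -0.75 and -0.12 in control mice on the log2 scale. Every arthritic library was above every control library, and control library 3 was closest to arthritic library 1. Icos, the costimulatory receptor that effector Tregs need to persist, rose from 5399, 4617 and 6778 to 9033, 11376 and 11979.8 (0.95 ± 0.16, adjusted p = 0.0262; 0.0865 without control library 1).

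Lgals3, which encodes galectin-3, rose from 75.3, 26.2 and 102 to 205, 494 and 408 (2.54 ± 0.45, adjusted p = 0.0339; 0.0631 without control library 1). S100a6, a calcium-binding protein of activated and migratory cells, rose from 527, 433 and 718 to 1037, 2115 and 2002 (1.58 ± 0.25, adjusted p = 0.0203; 0.0637 without control library 1). In both genes arthritic mouse 1 was the lowest of its group and control mouse 2 the lowest of all. Lgals1 stood just outside the threshold at 3525, 5613 and 5444 against 2365, 2306 and 3132 (adjusted p = 0.0585). Il1rl1, the IL-33 receptor of tissue Tregs, was at 697, 1269 and 1305 against 208, 223 and 631 (adjusted p = 0.116), and Klrg1, a receptor of terminally differentiated Tregs, at 664, 1484 and 1498 against 99.4, 262 and 612 (adjusted p = 0.132). Prdm1, which encodes Blimp-1, was at 123, 172 and 234 against 67.2, 41.5 and 63.9 (adjusted p = 0.132). In these 3 genes each arthritic mouse was above each control, but the spread within the groups was wide and none passed. The tissue Treg factor Gata3 was at 5306, 6621 and 7635 against 6494, 5969.9 and 6927 with overlap, a difference of -0.32 to 0.31 (95% interval). DESeq2 called 13 of the 30, all higher, adding Lgals1, Prdm1, Batf, Maf, Myo1f, Anxa2, S100a4 and S100a11 and including Rora.

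**Figure D3:**
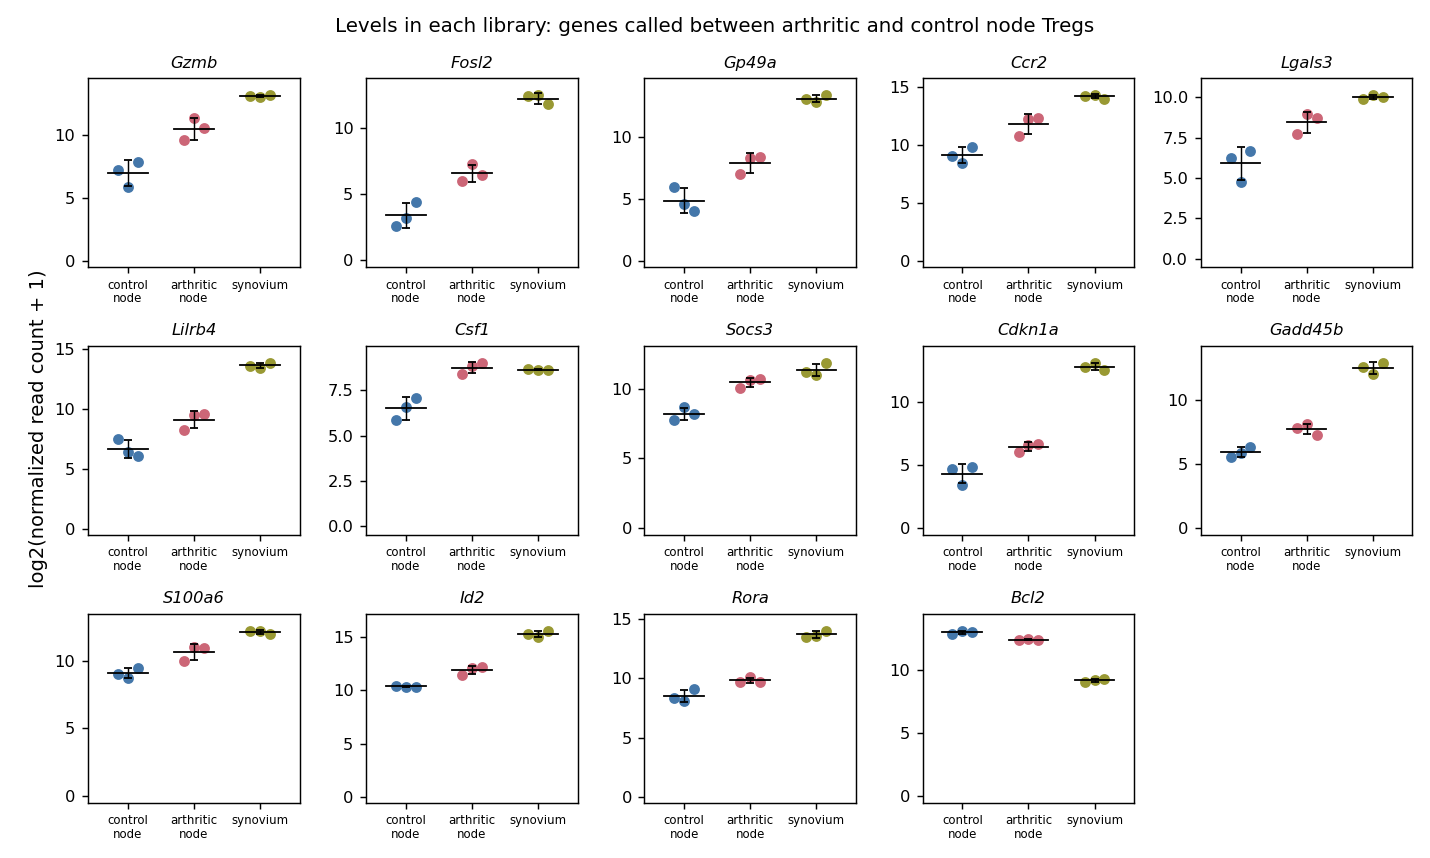
Levels of 14 genes selected by size of difference (13 higher, 1 lower), as log2(normalized read count + 1) in each library, with control node, arthritic node and synovial Tregs on the horizontal axis. Points are libraries, and bars the group mean and SD of 3 libraries. Only called genes whose control and arthritic node libraries did not overlap were selected, so no panel shows an overlap.

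Ly6a, Ctla2a, Sdc4 and Abcb1a were higher as well. Ly6a, which encodes the activation marker Sca-1, rose from 3174, 3523 and 2692 to 4959, 8419 and 6394 (1.05 ± 0.17, adjusted p = 0.0215). Ctla2a, which encodes an inhibitor of cysteine proteases, rose from 186, 239 and 204 to 386, 550.3 and 645 (1.30 ± 0.20, adjusted p = 0.0154). A near-identical copy, Ctla2b, can share its reads, so its level is uncertain. Without control library 1 neither was called (adjusted p = 0.0645 and 0.0546). Sdc4, the cell surface proteoglycan syndecan-4, rose from 467, 374 and 394 to 755, 866 and 873 (1.02 ± 0.15, adjusted p = 0.0147), and Abcb1a, a drug efflux pump of the cell membrane, from 408, 339 and 433 to 1024, 1019 and 874 (1.31 ± 0.17, adjusted p = 0.0121). Both stayed called without control library 1 (adjusted p = 0.0224 and 0.0209). Abcb1a exons overlap Gm42686 on the other strand.

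Ctsa, Emb, Plekhb2 and Mif4gd were higher by smaller amounts. Ctsa, a lysosomal carboxypeptidase, stood at 4203, 4432 and 4130.1 against 2541, 2519 and 2616 (0.73 ± 0.10, adjusted p = 0.0121), although its exons overlap Neurl2 and Pltp on the other strand. Emb, which encodes the adhesion glycoprotein embigin, stood at 6679.6, 7548 and 7077 against 4799.6, 4085 and 3795 (0.75 ± 0.10, adjusted p = 0.0121), with an overlap with Gm17509 on the other strand. Each group was tight in both genes, and both stayed called without control library 1 (adjusted p = 0.0408 and 0.0145). Plekhb2 rose from 1333, 1404 and 1502 to 2239, 2634 and 2232 and Mif4gd, which overlaps Mrps7 on the other strand, from 1314, 1232 and 1348 to 1923, 1942 and 2266 (adjusted p = 0.0212 and 0.0321). Neither was called without control library 1 (adjusted p = 0.072 and 0.0815).

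At low levels, Ctsh, a lysosomal cathepsin, had 1 control read and stood at 21.7, 52.0 and 19.2, a ratio of 96.9 (95% counting interval 17.0 to 3866) with an adjusted p of 0.0192. Gda, the enzyme guanine deaminase, stood at 18.3, 20.2 and 11.4, and Mpzl1, a membrane protein of the immunoglobulin family, at 12.2, 16.4 and 13.1, both with no control read. They were at least 5.89-fold and 4.92-fold higher (adjusted p = 0.0144 and 0.049), and Mpzl1 was not called without control library 1 (adjusted p = 0.0637). Like most other called genes with 1 control read or none, Ctsh, Gda and Mpzl1 were low in arthritic mice too, where single reads count for much.

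Cdkn1a, Gadd45b and Gadd45g were higher. Cdkn1a (chromosome 17, 29090976 to 29100727) encodes p21, an inhibitor of cyclin-dependent kinases, and stood at 64.4, 97.2 and 103 in arthritic and 25.1, 9.93 and 28.3 in control mice. The difference was 2.11 ± 0.37 (adjusted p = 0.0321; 0.0452 without control library 1), and its exons overlap AC167363.2 on the other strand. Gadd45b and Gadd45g, which encode stress sensors that activate p38 signalling in T cells, rose from 46.2, 59.6 and 81.3 to 232, 277 and 156 and from 285, 292 and 165 to 574, 630.2 and 473. Their differences were 1.81 ± 0.29 and 1.21 ± 0.22 (adjusted p = 0.0212 and 0.0435), and neither was called without control library 1 (adjusted p = 0.0635 and 0.0564). A pair of genes that restore oxidised proteins was called as well. Glrx, glutaredoxin, rose from 1407, 1069.8 and 1707 to 2384, 3483 and 3439 (1.16 ± 0.18, adjusted p = 0.0192; 0.0564 without control library 1). Srxn1, sulfiredoxin, had 1 control read and stood at 19.1, 34.6 and 47.2, a ratio of 107 (95% counting interval 18.9 to 4282) with an adjusted p of 0.0121.

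Of 29 genes of the dissociation and stress response, 2 were called (Fosl2 and Gadd45b), both higher, with a median of 0.32. Centred per gene, the list's median per library was 0.40, 0.23 and -0.16 in arthritic and -0.09, -0.15 and -0.18 in control mice, so arthritic mice 1 and 2 were above the controls and mouse 3 lay within their range. Fos was at 370.5, 359.8 and 74.3 against 145, 97.5 and 5.48 and Jun at 2118, 1484 and 328 against 1386, 719 and 100.4, low in mouse 3 of either group. The inducible heat shock gene Dnajb1 was at 4698, 5482 and 2765 against 2813, 2445 and 1923 (adjusted p = 0.229). Whether handling of the tissue has a part in the calls of Fosl2 and Gadd45b was not tested.

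Bcl2 (chromosome 1, 106538178 to 106714274), which protects resting T cells from apoptosis, was the single gene called lower. It stood at 5446, 5703 and 5376 in arthritic and 7769, 9168 and 8455 in control mice, tight within the arthritic group and without overlap. The difference was -0.62 (SE 0.11, adjusted p = 0.0278), and the call was lost without control library 1 (adjusted p = 0.0546). Its exons overlap D630008O14Rik on the other strand. Among 20 genes that mark naive or node-homing T cells it was the only call, and the list median was -0.01. The transcription factor Tcf7 was at 4063, 4060.2 and 3970.3 against 3759.8, 3102 and 2913 (adjusted p = 0.783), slightly above the controls, and Lef1 at 5316, 6381 and 5129 against 6071, 6131 and 5499.9 with overlap. Il7r, the IL-7 receptor, was at 4114, 6187 and 5389 against 4254, 5886 and 2879 with overlap.

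Few genes of the helper T cell lists were called by limma. Of 15 Th17 genes, 2 were called (Il1r1 and Rora), both higher, and the median was 0.59. Il23r, the IL-23 receptor, was low in all 6 libraries but higher in each arthritic mouse, and did not pass with limma (adjusted p = 0.186), while DESeq2 called it. Of 14 Th1 genes, 2 were called, Il18r1 among them, both higher, and the Th1 factor Tbx21 was low and overlapped between the groups (adjusted p = 0.779). None of 9 Th2 genes was called. Icos was the only call among 14 follicular genes; Cxcr5, the receptor that brings T cells into follicles, was at 1049.6, 309.8 and 890.1 against 602, 427 and 349, low in arthritic mouse 2.

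**Figure D4:**
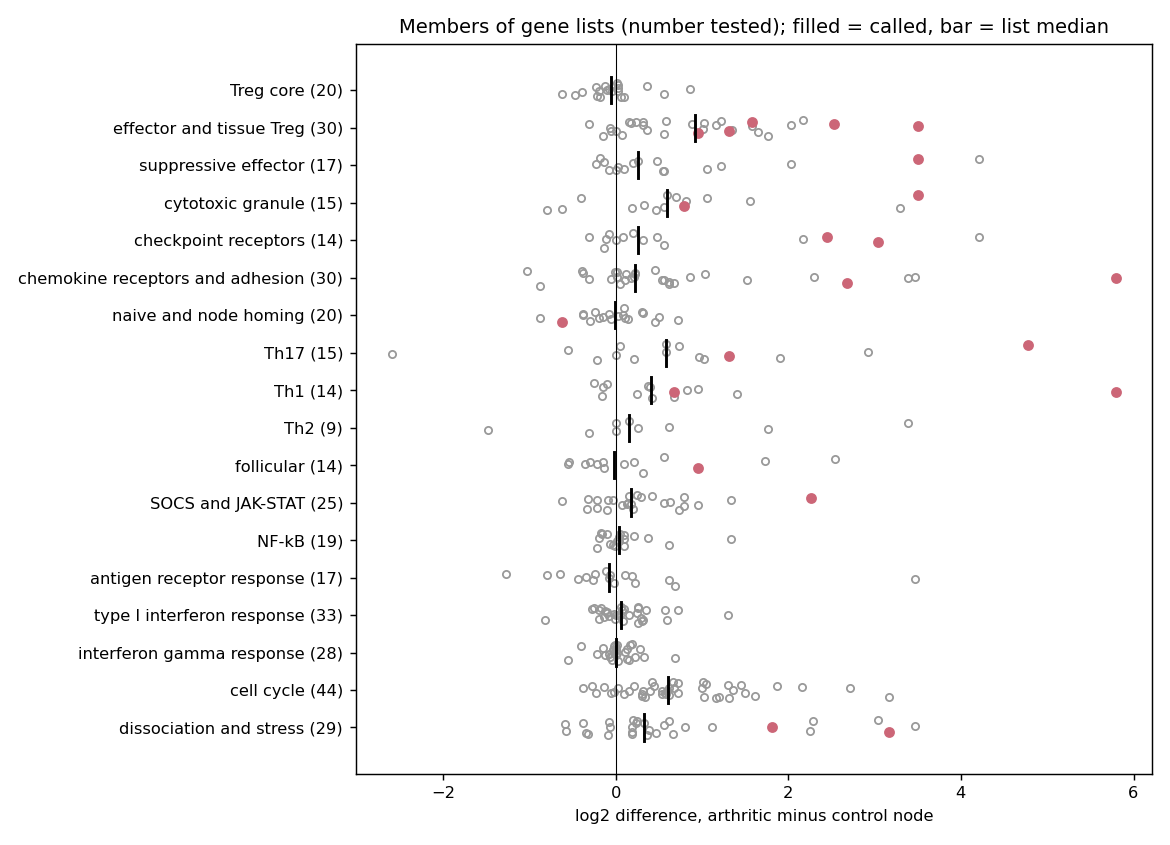
Log2 differences (horizontal axis) of the tested members of 18 gene lists (vertical axis, number tested in brackets). Filled points are called genes, open points are not called, and the black bar is the list median, at 0.92 for the effector and tissue Treg list and -0.06 for the Treg core list. Marker lists of other cell types are not shown.

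With limma, the interferon, NF-kB and antigen receptor lists held 0 calls. For 33 type I interferon response genes the median was 0.07, and for 28 interferon gamma response genes it was 0.00. Within the groups the type I list varied between mice, with medians per library, centred per gene, of -0.15, 0.47 and -0.11 in arthritic and 0.24, 0.11 and -0.56 in control mice; arthritic mouse 2 was the highest and control mouse 3 the lowest. Isg15 read 512, 791 and 620.2 against 669, 694 and 281. Of 19 NF-kB genes limma called 0 (median 0.04) and DESeq2 called 1, the adhesion molecule gene Icam1, and the feedback inhibitor Tnfaip3 was at 1704, 1647 and 1926 against 1906, 1575 and 1822. Of 17 antigen receptor response genes limma called 0 (median -0.08). DESeq2 called 3, with Fosb higher and Myc and Nr4a2 lower, and edgeR and limma with weights per library called Fosb. Nr4a1, an immediate reporter of receptor signalling, was at 1131, 1487 and 978 against 1342, 1755 and 1737 (adjusted p = 0.499), and Myc at 4584, 2909 and 4164 against 7482, 6207 and 6174, below the controls in each arthritic mouse and just outside the threshold (adjusted p = 0.0652).

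Cell cycle genes had mostly positive differences. Of 44, 38 were positive with a median of 0.61, limma called 0, and DESeq2 called 2, Ccnb2 and Cdc20, both higher. The median per library was 0.02, 0.19 and 0.77 in arthritic and -0.24, -0.95 and 0.28 in control mice, so that control mouse 2 was lowest and arthritic mouse 3 highest, while control mouse 3 exceeded arthritic mice 1 and 2. The proliferation marker Mki67 was at 343, 429 and 736 against 313, 96.6 and 316 (adjusted p = 0.468). Ccnb2, cyclin B2, was at 275, 656 and 823 against 189, 84.0 and 319 and Cdc20 at 238, 280.0 and 337 against 132, 72.2 and 149.7 (adjusted p with limma = 0.245 and 0.212; 0.0325 and 0.0472 with DESeq2). The lists of glycolysis and hypoxia (23 genes), cholesterol synthesis (22), fatty acid metabolism (15), the unfolded protein response (21) and the proteasome (30) had 0 limma calls, with medians of 0.09, 0.01, 0.18, 0.09 and -0.04. DESeq2 called 2 of the glycolysis and hypoxia genes, P4ha1 and Slc2a3, both higher. The 14 genes of the TNF receptor superfamily had 0 calls (median 0.15), and Tnfrsf4, which encodes OX40, was at 12129.6, 10499.7 and 11341 against 13578, 12256 and 13494. Of 17 suppressive effector genes Gzmb was the single call; Ebi3, a subunit of IL-35, was at 844, 634 and 522 against 429.6, 427 and 488 (adjusted p = 0.348).

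Markers of other cell types differed in level between the libraries. Among 7 tested markers of cytotoxic cells (NK, CD8 and gamma delta T cells) 1 was called with limma, Klrc1, 7 had a positive difference, and the median difference was 1.90, or 2.58 with the 3 genes absent from controls at their bound. The summed level of the list was 195, 271 and 518 in arthritic and 206, 104 and 168 in control mice. Arthritic mouse 3 was highest, and arthritic mouse 1 was below control mouse 1. The NK receptor Ncr1 had no read in any of the 6 libraries. The part of such cells in the values of Gzmb and Klrc1 was not tested. Conventional CD4 T cell markers, 10 in all, are largely shared with Tregs; their sums were 72917, 72514 and 72226 and 74297, 74798 and 66584, with 0 calls.

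B and plasma cell markers summed to 919, 832 and 1097 against 603, 586 and 511, higher in every arthritic mouse. Of 7 tested markers 6 were positive and 0 called. The median difference was 0.99 for this list, 0.26 for the dendritic cell list and 0.41 for the node stroma list. Cd22 made up part of this at 295, 372 and 262 against 107, 96.6 and 0 (adjusted p = 0.547), while Ebf1 and Ms4a1 had no read in the 6 libraries. Dendritic cell markers summed to 7121, 6483 and 6562 against 6561, 4767 and 6269, mostly Cd74 and Bst2, with 0 of 7 called, and Ccl22, Clec9a and Flt3 were at 0. Among the macrophage markers, Apoe was at 626, 129.9 and 710.2 against 237, 93.0 and 339.6, and Lyz2 at 190.4, 8.66 and 307 against 228, 56.0 and 315, lowest in mouse 2 of either group. Among the neutrophil markers 8 were at 0 in all 6 libraries, as were 6 mast cell, 7 endothelial and 5 erythroid markers. Node stroma markers summed to 3940.3, 3787 and 4632 against 4211, 4388 and 4317. Arthritic mouse 3 had more of the matrix genes (Col1a1 at 0, 11.5 and 75.1 against 1.00, 11.7 and 33.8, Dcn at 0, 0 and 41.1 against 0, 0 and 0.913), and Ccl19, Ccl21a, Cxcl13, Pdgfra, Pdpn and Postn were at 0. None of the lists of this paragraph held a call, and their part in the differences was not tested.

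Genes seen in one group only were few. With no read in the 3 controls and at least 10 reads in each arthritic library there were 11 genes, among them Gda, Il17re, Klrc1, Klrd1, Mpzl1, Pkib, Tlr4, Tmem141, Wfikkn2 and Zik1. The reverse held for 1 gene, Islr, at 66.2, 11.7 and 32.0 in control mice. Apart from the 6 called ones, these genes were chosen after their values were seen. 

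The mice of each group differed among themselves about as much in both groups. The median SD of a gene's log2 level, over 9227 genes, was 0.208 in arthritic and 0.238 in control mice. The 5 genes that varied most among arthritic mice, with a mean of at least 50 there, included Cd209b, Pla2g15, Ccl8 and Ccl4, and none of the 5 was called. Cd209b, a C-type lectin of node macrophages, read 396, 0 and 27.1, and Ccl8, a chemokine of macrophages, 247, 0 and 12.2. Both were high in arthritic mouse 1 alone. The chemokine Ccl4 was at 0, 221 and 11.4, high in arthritic mouse 2 alone, and Pla2g15, a lysosomal phospholipase, at 173, 157 and 0, without a read in mouse 3.

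Levels in synovial Tregs of arthritic mice can be set beside the node values; the synovial and arthritic node libraries carry the same mouse numbers, and any comparison with synovium shares the arthritic node group. Gzmb averaged 8602 ± 461 in synovial Tregs, 1568 ± 873 in arthritic and 144 ± 88.0 in control nodes (mean ± SD, n = 3 each). For Ccr2 the means were, in the same order, 18382 ± 2109, 3886 ± 1865 and 585 ± 276. For Id2 they were 40433 ± 7833, 3891 ± 1001 and 1319 ± 51.8. Lilrb4 averaged 12545 ± 1788, 583 ± 242 and 108 ± 58.5. In these 4 genes the arthritic node lay between control node and synovium. Csf1 was different in that its synovial and arthritic node levels were alike. It averaged 400.3 ± 9.45 in synovium and 440.4 ± 94.3 in arthritic nodes, against 95.1 ± 40.0 in control nodes. Bcl2 averaged 599.7 ± 45.6 in synovial Tregs, far below the 5508 ± 172 of arthritic and 8464 ± 699 of control nodes. The plot of levels in each library shows these values.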

How the data were processed

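RNA of sorted Tregs was sequenced in 9 libraries, and the 6 node libraries were compared, 3 against 3. Per the submitters' processing notes, the authors used mm10, HISAT2, HTSeq and DESeq2. Tool versions, gene annotation and strandedness of counting are not given in the sources used here. Their deposited table holds a normalized signal for 23420 genes, gene read counts that the authors divided by a size factor per library. Dividing by 1 step per library turned 100% of nonzero values into whole reads, within 0.01, and these recovered reads were used for count models and bounds. The authors' deposited table of synovial against node Tregs was not used.

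Genes were tested with limma 3.58.1 (R 4.3.3; lmFit and eBayes, trend on), two-sided, on log2(normalized value + 1). The 11357 genes tested averaged 10 or more across all 9 libraries. All 9 libraries entered the fit, and Benjamini-Hochberg adjustment ran over all genes tested. The added 1 lowers the difference of low genes. For genes without a read in 1 group, folds are lower bounds against 3 reads per library. Bounds and intervals (95%, exact binomial) cover counting error only. Named genes were up to 15 per direction with the largest difference among called genes with a mean of at least 50 in the higher group and no overlap, and members of the 26 program and 10 marker lists; some genes these rules allow are not reported here. The members and lists were chosen with earlier results of these data known. Alternatives changed the pseudocount (0.5 or 5), filter (none or 50), variance model, scaling, test (edgeR 4.0.16 or DESeq2 1.42.0 on recovered reads), fold threshold (2), replicate block and libraries. Scripts were tested on simulated data. Positions are from GENCODE on GRCm38, the assembly also called mm10.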

Additional observations from a re-analysis of the deposited data

How the results depend on the processing

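The count of 39 called genes (38 higher, 1 lower) moved by over 1.5 times under several alternatives. Without a mean-variance trend it was 10 (10 higher, 0 lower), in the limma fit of the 6 node libraries 0, and with DESeq2 173 (136 higher, 37 lower; 78.6% higher against 97.4%). Weights per library gave 50 (47 higher, 3 lower), quantile normalization 38 (35 higher, 3 lower) and a 2-fold minimum 31 (31 higher, 0 lower). Leaving out each node library in turn gave 0 to 66 genes, with 0 to 65 higher and 0 to 4 lower; the lowest was without arthritic library 2 and the highest without control library 3. Chosen after seeing the data, fits of the 6 node libraries by edgeR gave 15 (13 higher, 2 lower) and by DESeq2 204 (133 higher, 71 lower). The other alternatives, which were pseudocounts, filters, TMM scaling and edgeR on 9 libraries, gave 30 to 40. All 39 genes kept their direction under every alternative that tested them, which adds no support to the calls. Their libraries did not overlap, so leaving out any library could not turn a direction, and several alternatives reuse the same differences.

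The labels give both groups mouse numbers 1 to 3, but nothing pairs them. Residuals of same-numbered libraries correlated at 0.0046, 0.067 and 0.070, and 2 of 3 numbers correlated best with themselves. A fit of the 6 node libraries with the replicate block gave 0 calls (0 higher, 0 lower; smallest adjusted p = 0.320, 1176 genes at an unadjusted p under 0.05). With 3 mice a group, genes of few reads have wide errors.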

Other observations

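Genes that missed the threshold of limma by little held further members of known programs; they were chosen after their values were seen. Crem, a transcription factor of the cAMP response, was at 1029, 1357 and 950.4 in arthritic and 757, 568 and 552 in control nodes (adjusted p = 0.0679). Fosb, an AP-1 subunit, was at 7.83, 12.5 and 10.5 against 0, 0 and 0 (adjusted p = 0.0831), and it was called by edgeR and DESeq2. It reached the mean level needed for testing only through the synovial libraries. Smc4, a subunit of condensin, was at 13278, 12030.4 and 12627 against 19301, 17867 and 16427, below the controls in each arthritic mouse (adjusted p = 0.0585).

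Within the lists, DESeq2 called 6 genes lower that limma did not: Il2ra, Socs2, Ctsw, Myc, Nr4a2 and Lta. Nr4a2, an orphan nuclear receptor induced by antigen receptor signals, was at 20.0, 44.3 and 46.3 against 146, 46.9 and 89.5 (adjusted p with limma = 0.367). The levels of the other 5 are given with their lists. Among the genes it called higher were Icam1, an adhesion molecule, at 1304, 1633 and 1333 against 1044, 767 and 981, and the glucose transporter Slc2a3 at 2491, 2488 and 1873 against 1574, 1489.5 and 1482, which limma did not call (adjusted p = 0.19 and 0.229).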
